A study of Drosophila melanogaster with 6 samples.

Results

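The genes described here make, take up and inactivate the monoamine transmitters of the fly brain, and they were chosen by name, as 10 gene symbols, by a rule that uses no measured value. They were ple, Ddc, Tbh, Tdc1, Tdc2 and Hn for synthesis, Pu for a cofactor, SerT and DAT for uptake, and e for inactivation. Of the 10 genes, 8 had a probe set that the platform annotation assigns to a single gene, with 1 probe set each, out of 10844 genes named in this way on the array. Tdc2 and Hn have no such probe set and were not analysed here. RNA came from brains of adult female flies of the CantonS strain of Drosophila melanogaster, raised on corn meal food at 25 °C. The 3 mushroom body-ablated samples (ablated 4, 5 and 6) came from flies fed hydroxyurea as newly hatched larvae, at 25 mg/ml in yeast paste for 4 h, and the 3 control samples (control 1, 2 and 3) from flies with no treatment. Hydroxyurea blocks DNA synthesis and kills neuroblasts that divide while the larva feeds, which at hatching are chiefly those of the mushroom body. It also removes a neuroblast lineage of the antennal lobe, and the drug was given to all ablated and to no control samples, so its effects and the loss of the mushroom bodies cannot be told apart. The comparison addresses which brain transcripts differ in adults after larval hydroxyurea feeding that ablates the mushroom bodies.

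Dopamine is made from tyrosine in consecutive steps, by tyrosine hydroxylase and then by aromatic amino acid decarboxylase, and serotonin is made from tryptophan by a related hydroxylase and the same decarboxylase. Octopamine arises from tyrosine through tyramine, by a tyrosine decarboxylase and a β-hydroxylase. Transporters of the plasma membrane return released dopamine and serotonin to the neuron, and insects inactivate amines largely by coupling them to β-alanine or an acetyl group. In the adult brain these genes act in small groups of neurons, and in glia, that lie outside the Kenyon cells, the intrinsic neurons of the mushroom body. Many of the dopamine neurons send their axons into the mushroom body lobes, where dopamine carries the reinforcement signal of odour learning.

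The samples were hybridised to Affymetrix arrays, which give 1 signal, an intensity on a linear scale, per probe set. The median signal was between 13 and 14.8 on the ablated arrays and between 14.2 and 17.6 on the control arrays, and with 3 arrays per group their number sets the precision. The labels do not say whether the arrays came from separate fly cultures, so the p-values measure a spread between samples that may be technical. The neuronal marker elav had a signal of 93.0, 60.6 and 84.4 in ablated brains, against 125, 96.7 and 105 in control brains. The glial marker repo had 115, 74.2 and 141 in ablated brains, against 144, 119 and 125 in control brains, so markers of nervous tissue were measured on every array. The Gapdh control probe sets, whose 3' over 5' ratio is a sign of RNA integrity, gave ratios that ranged from 7.12 to 10.5 in ablated and from 7.18 to 13.0 in control brains. For the actin control probe sets the ratios were 12.55 to 17.2 in ablated and 13.0 to 19.4 in control brains. On every array the 3' signal was thus several-fold the 5' signal. Groups were compared with limma on log2(signal + 2.7), which understates the change of dim genes, over the 8381 probe sets with a mean signal of at least 9.2. All differences below are ablated minus control on that log2 scale. Their median over the 8381 probe sets was -0.17, so a value of that size is the general difference between the groups on the deposited scale. For the 7 neural markers tested, elav and repo among them, the median was -0.21, with a range from -0.46 (elav) to 0.089. For 2 of the 7, elav included, every ablated value was below every control value, as for 14.8% of all probe sets. In whole brains, fewer cells of a type and less RNA per cell cannot be told apart.

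The monoamine genes showed no difference past the test between mushroom body-ablated and control brains. For 7 of the 8 genes the mean signal in ablated brains was between 0.871 (Ddc) and 1.04 (e) times that in control brains, and for Tdc1, a dim gene, it was 1.43 times. Of the 7 probe sets tested, 0 passed limma's test at an adjusted p of 0.05, with adjusted p-values between 0.568 and 0.978. Over all 8381 probe sets 0% passed in either direction, so these counts say nothing particular about the monoamine genes. At an unadjusted p under 0.05, 0 of the 7 were lower and 0 higher, against a background of 7.89% lower and 0.632% higher. Their differences ranged from -0.20 for Ddc to 0.45 for Tdc1, with a median of -0.041. The 95% interval of the difference lay above a fall to 1/2 of the control level for 7 of the 7, and above a 1.5-fold fall for 5 of the 7, against 80.9% and 34% of all probe sets. Tdc1 reached the level for testing through the ablated arrays. Without it these counts were 6 and 4 of 6, and the median difference was -0.043. Of these 7 differences, 1 lay below the median of all probe sets.

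**Figure D1:**
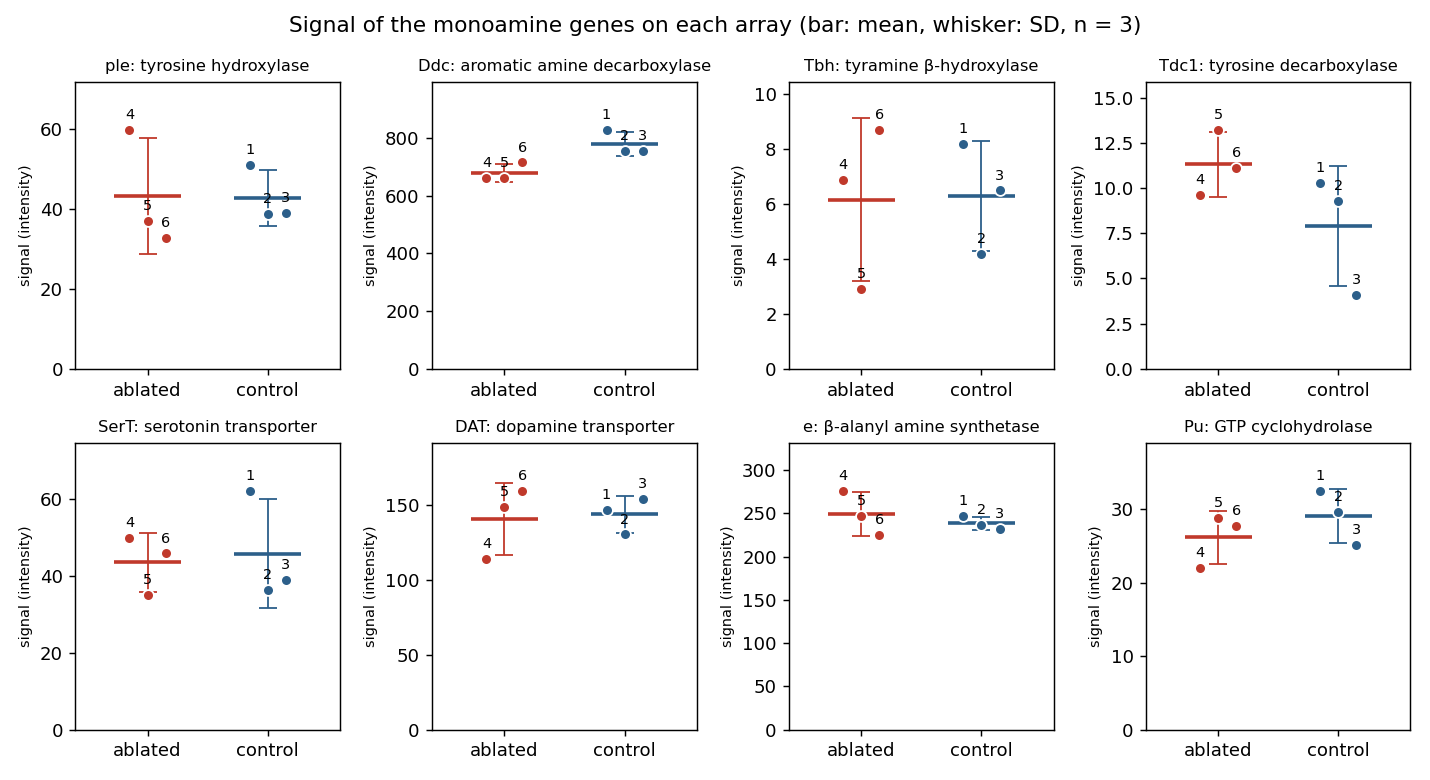
Signal (intensity, linear axis from 0) of the 8 measured monoamine genes, with ablated brains left and control brains right. Points are arrays with their numbers, bars are means and whiskers are SD (n = 3 per group); the points of the groups are apart only for Ddc.

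Among the enzymes of dopamine synthesis, ple (143559_at) encodes tyrosine hydroxylase, the rate-limiting step. Its signal was 59.7, 36.9 and 32.8 in ablated brains, against 50.9, 38.7 and 38.9 in control brains. The groups overlapped, and the highest and the lowest of the 6 values were both from ablated brains. The mean was 43.1 ± 14.5 (SD, n = 3) in ablated and 42.8 ± 6.99 (SD, n = 3) in control brains, a difference of -0.025 (SE 0.24, limma adjusted p = 0.978). The 95% interval of the fold, ablated over control, ran from 0.672 to 1.44. Without ablated 4 the difference was -0.27, and without ablated 6 it was 0.14. Array by array, the photoreceptor markers were also high on ablated 4 and control 1, with summed signals of 1376 and 1812. On ablated 6, where ple was lowest, they summed to 892, and on ablated 5 to 388. The markers summed to 696 on control 2 and to 122 on control 3, where ple was 38.7 and 38.9. Their part in the ple values was not tested.

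Ddc (152611_at) encodes the decarboxylase shared by dopamine and serotonin synthesis, which also serves cuticle tanning in the epidermis. Its signal was 661, 662 and 715 in ablated brains, against 827, 756 and 756 in control brains. Each ablated array was below each control array, and this was the only monoamine probe set so separated on the deposited scale. Of all probe sets tested, 14.8% were separated in this direction and 1.26% in the other, so 1 of 7 is near the background. The mean was 679 ± 31.1 (SD, n = 3) in ablated and 780 ± 41.3 (SD, n = 3) in control brains, a difference of -0.20 (SE 0.11, limma adjusted p = 0.568), which is -0.024 from the median of all probe sets. With arrays scaled to the same median, its signal was 663, 756 and 723 in ablated brains, against 698, 759 and 790 in control brains. On that scale the groups overlapped and the difference was -0.069, while 7.99% of all tested probe sets had every ablated value below the control values. After quantile normalization Ddc was again separated, with a difference of -0.068, and after cyclic loess it was not. The share of all probe sets separated in this direction was not computed for those scalings. Ddc was among the brightest probe sets on every array, above at least 98.3% of them, and it varied by only 1.25-fold between the highest and lowest array.

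Pu (154812_at) encodes GTP cyclohydrolase, which starts the synthesis of tetrahydrobiopterin, the cofactor of the hydroxylases, and of the pteridine eye pigments. Its signal was 22.0, 28.8 and 27.7 in ablated brains, against 32.5, 29.6 and 25.1 in control brains. The groups overlapped, with the lowest value on ablated 4 and the highest on control 1. The mean was 26.2 ± 3.65 (SD, n = 3) in ablated and 29.1 ± 3.73 (SD, n = 3) in control brains, a difference of -0.14 (SE 0.20, limma adjusted p = 0.800). The interval of the fold ran from 0.661 to 1.25.

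For the octopamine branch, both measured genes were dim. Tdc1 (146686_at) encodes the tyrosine decarboxylase known mainly from tissues outside the nervous system, while Tdc2, which was not measured, is the neuronal form. Tdc1 had a signal of 9.6, 13.2 and 11.1 in ablated brains, against 10.3, 9.3 and 4.1 in control brains. The groups overlapped by a single pair, since ablated 4 was below control 1, and control 3 was the lowest by a wide margin. The mean was 11.3 ± 1.81 (SD, n = 3) in ablated and 7.90 ± 3.33 (SD, n = 3) in control brains. The difference was 0.45 (SE 0.38, limma adjusted p = 0.670), and the interval of the fold, 0.753 to 2.47, was the widest of the 7. Without control 3 the difference was 0.16. Under each of the other 3 scalings of the arrays, every ablated value of Tdc1 was above every control value, with differences of 0.56, 0.53 and 0.56 and limma adjusted p-values of 0.829, 0.854 and 0.855. The share of all tested probe sets separated in that direction was 3.16% with median-centred arrays, 4.32% after quantile normalization and 5.39% after cyclic loess. Its control mean was below the level of 9.2 asked for testing, which it passed over all 6 arrays with a mean of 9.60.

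Tbh (143596_at) encodes tyramine β-hydroxylase, which makes octopamine from tyramine. Its signal was 6.9, 2.9 and 8.7 in ablated brains, against 8.2, 4.2 and 6.5 in control brains, so the groups overlapped over nearly their whole range. The mean was 6.17 ± 2.97 (SD, n = 3) in ablated and 6.30 ± 2.01 (SD, n = 3) in control brains. With a mean below 9.2 over the arrays it was not tested, and its signal was above no more than 39.3% of the probe sets on any array. The low signal of this probe set limits what can be said of octopamine synthesis in these brains.

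The transporters overlapped between the groups as well. DAT (147316_at), the dopamine transporter, is a marker of dopamine neurons and the target of the fumin mutation, which shortens sleep. Its signal was 114, 149 and 159 in ablated brains, against 147, 130 and 154 in control brains, with both extremes on ablated arrays. The mean was 141 ± 23.8 (SD, n = 3) in ablated and 144 ± 12.1 (SD, n = 3) in control brains, a difference of -0.041 (SE 0.18, limma adjusted p = 0.940). The interval of the fold ran from 0.740 to 1.28.

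SerT (143621_at), the serotonin transporter, had a signal of 49.9, 35.0 and 45.9 in ablated brains, against 62.2, 36.3 and 39.1 in control brains. Control 1 was the highest and ablated 5 the lowest. The mean was 43.6 ± 7.71 (SD, n = 3) in ablated and 45.9 ± 14.2 (SD, n = 3) in control brains, a difference of -0.045 (SE 0.24, limma adjusted p = 0.953). The interval of the fold ran from 0.666 to 1.41. With control 1 and ablated 5, the arrays of highest and lowest median signal, both left out, the difference was 0.32 (limma adjusted p = 0.921).

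The gene e (ebony, 152932_at) encodes the enzyme that couples dopamine and histamine to β-alanine, in glia of the visual system and other brain regions and in the epidermis. Its signal was 276, 247 and 225 in ablated brains, against 247, 237 and 232 in control brains. The control values lay inside the range of the ablated values. The mean was 249 ± 25.4 (SD, n = 3) in ablated and 239 ± 7.59 (SD, n = 3) in control brains, a difference of 0.058 (SE 0.14, limma adjusted p = 0.891). The interval of the fold ran from 0.836 to 1.30. It varied least of the measured monoamine genes, by 1.23-fold over the 6 arrays, and its difference was 0.23 above the median of all probe sets.

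**Figure D2:**
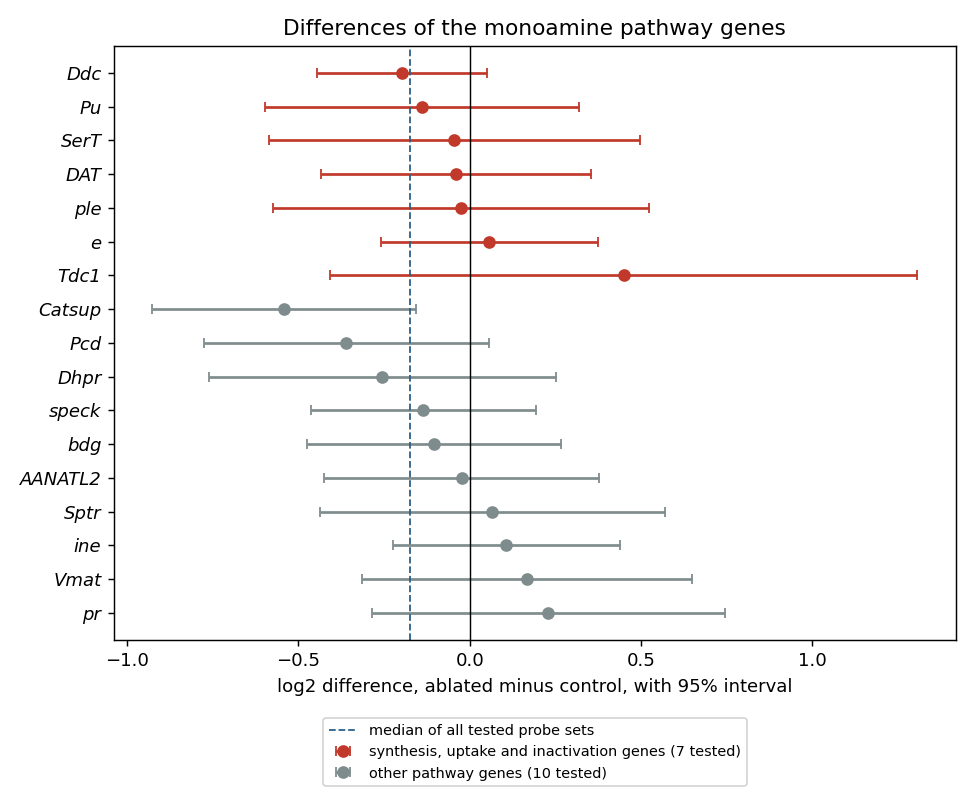
Differences in log2(signal + 2.7), ablated minus control, with 95% intervals from limma, for the 7 monoamine genes tested (red, above) and 10 other pathway genes (grey, below). The dashed line is the median of all 8381 tested probe sets (-0.17); the 7 red intervals cross 0, and among the grey genes the interval of Catsup lies below 0.

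A single scaling factor per array cancels in the ratio of genes within it, so the dopamine genes ple, Ddc, DAT and e were also compared with each other on the deposited scale. Quantile normalization and cyclic loess, which depend on intensity, do not cancel in such a ratio. Of the 6 pairs of dopamine genes, which share genes and so are not independent, 1 had log2 ratios that did not overlap between the groups. How often ratios of other probe sets are so separated was not computed. The pair was Ddc over e, at 1.26, 1.42 and 1.67 in ablated brains, against 1.74, 1.68 and 1.70 in control brains. The groups barely separated, with 1.667 on ablated 6 and 1.676 on control 2. The difference was -0.26, with an exact two-sided permutation p = 0.1, the smallest that 3 against 3 arrays allow, and 0.6 after Benjamini-Hochberg adjustment over the 6 pairs. The level of such a ratio has no meaning, since the genes are read by different probes, and a changed ratio does not say which gene changed. The log2 ratio of DAT over ple, uptake against synthesis, was 0.93, 2.01 and 2.28 in ablated brains, against 1.53, 1.75 and 1.98 in control brains. The ablated values of this ratio lay on both sides of the control values, with a difference of -0.013 (exact permutation p = 1). The other 4 pairs differed by between -0.17 and 0.16, with overlapping groups.

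Of 16 further genes that act in the synthesis, cofactor supply, storage, transport or inactivation of biogenic amines, 13 had a probe set and 10 were tested. The list was chosen by the role of its genes, with earlier results of these data known. Of the 10, 0 passed limma's adjusted test, 6 differences were below 0 and 4 above, and the median was -0.063. At an unadjusted p under 0.05, 1 was lower and 0 higher, and for 2 the ablated values all lay below the control values. Over all probe sets these shares were 7.89% lower, 0.632% higher and 14.8% separated, so the counts of 1 and 2 of 10 are near the background.

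The lower gene at that p was Catsup (154165_at), a zinc transporter of the endomembrane system that was first described as a negative regulator of tyrosine hydroxylase. Its signal was 48.6, 45.1 and 56.4 in ablated brains, against 70.0, 79.6 and 71.9 in control brains, with a gap between the groups. The difference was -0.54 (SE 0.17, unadjusted p = 0.0110, limma adjusted p = 0.554), which is -0.37 from the median of all probe sets. Over 15 alternative settings it ranged from -0.63 to -0.34, with 0 of them past the adjusted threshold.

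The other separated gene was Pcd (144026_at), pterin-4a-carbinolamine dehydratase, which recycles the hydroxylase cofactor. It had 61.8, 65.5 and 55.2 in ablated brains, against 74.1, 95.7 and 68.5 in control brains, a difference of -0.36 (SE 0.19, limma adjusted p = 0.560). Dhpr (148447_at), dihydropteridine reductase of the same recycling pathway, differed by -0.26 (SE 0.23, limma adjusted p = 0.678). The gene pr (purple, 153549_at), which encodes the synthase acting after GTP cyclohydrolase, differed by 0.23 (SE 0.23, limma adjusted p = 0.710). The cofactor genes thus lay on both sides of 0, and those named here did not pass the test. Hdc, t and CarT, genes of histamine and β-alanine metabolism, had probe sets under the level for testing, and Trhn and b had no probe set assigned to them alone.

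Marker lists of tissues that a brain dissection can carry along varied between arrays to very different degrees. The highest array was 14.9-fold above the lowest for the summed signal of 7 photoreceptor markers, 6.99-fold for 11 muscle markers and 4.56-fold for 14 odorant-binding proteins. It was 3.07-fold above for tracheal, 2.26-fold for fat body, 2.09-fold for cuticle and 1.36-fold for eye pigment markers. Among the monoamine genes it was 1.23-fold for e, 1.25-fold for Ddc, 1.40-fold for DAT, 1.48-fold for Pu, 1.78-fold for SerT and 1.82-fold for ple. The dim genes Tbh and Tdc1 varied by 3-fold and 3.22-fold. The first 3 lists thus varied more than each of the 8 genes. The eye pigment sum varied less than DAT, SerT, ple, Tbh and Tdc1, and less than Pu, which is itself in that list. A sum over 10 measured pigment genes and a single gene are unlike measures, so nothing is concluded from this. Muscle markers summed to between 334 and 1311 in ablated brains, against 187 to 774 in control brains, and odorant-binding proteins to between 687 and 1969, against 432 to 1018. Both were highest on ablated 5. On that array the log2 of the signal over the control mean was -0.22 for ple, -0.24 for Ddc, -1.12 for Tbh, 0.74 for Tdc1, -0.39 for SerT, 0.049 for DAT, 0.047 for e and -0.013 for Pu. The 14 measured cuticle and epidermis markers, of a tissue that also uses ple, Ddc and e, summed to 149 to 262 in ablated brains, against 126 to 232 in control brains. Of these marker genes none was at 0 on all arrays, and 6 of the 14 cuticle markers were below the level for testing. The summed signal of 8 measured tracheal markers was higher on each ablated than on each control array. It was 530, 658 and 367 in ablated brains, against 285, 332 and 215 in control brains. Of the marker lists this was the only one so separated. Of single probe sets 1.26% were, but a sum over genes is an unlike measure. Of the 8 tracheal markers, 3 were below the level for testing, and the tracheal and cuticle lists both name knk and verm. The part of these tissues in the monoamine values was not tested.

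**Figure D3:**
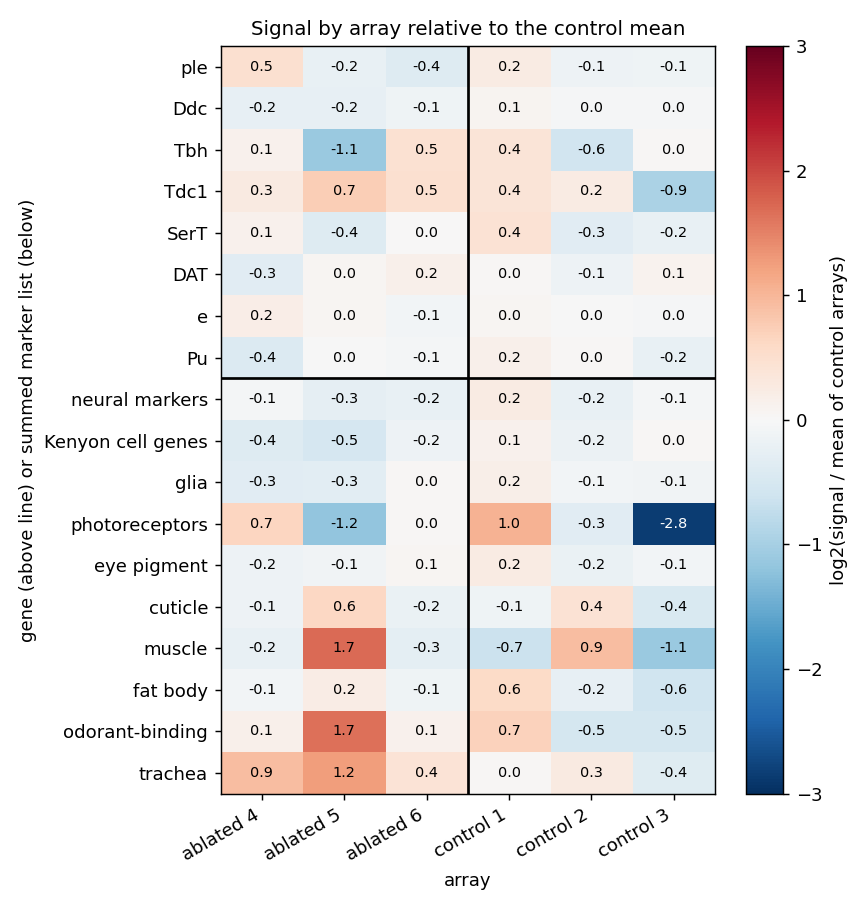
Signal on each array as log2 of its ratio to the mean of the 3 control arrays, with ablated arrays in the 3 left columns. Rows above the line are the 8 monoamine genes and rows below it are summed marker lists; the photoreceptor row spans -2.84 to 1.05, while Ddc spans -0.24 to 0.086.

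Set beside them, the Kenyon cell genes had larger differences below 0 on the same arrays, though none past the adjusted test. Of 11 tested Kenyon cell genes, 0 passed limma's adjusted test, and 6 were lower and 0 higher at an unadjusted p under 0.05. For 4 the ablated values all lay below the control values. Over all probe sets these shares were 0% past the adjusted test, 7.89% lower, 0.632% higher and 14.8% separated. The median difference of the Kenyon cell genes was -0.40, against -0.041 for the monoamine genes and -0.17 for all probe sets. The Pax6 gene ey (143543_at), needed for mushroom body development, had a signal of 108, 98.2 and 120 in ablated brains, against 268, 193 and 199 in control brains. The 95% interval of its fold ran from 0.382 to 0.664, and ey was named after its values were seen. Over the 11 Kenyon cell genes the differences ranged from -1.39 to -0.20. Whether the lists differ from each other was not tested, and the Kenyon cell list was chosen with earlier results of these data known.

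The direction of the small differences depended on the scaling of the arrays. Scaled to the same median, after quantile normalization and after cyclic loess, the differences of ple, SerT and DAT lay above 0, while they were slightly below 0 on the deposited scale. For ple they were 0.097, 0.14 and 0.16, for SerT 0.077, 0.11 and 0.15, and for DAT 0.086, 0.15 and 0.17. Ddc stayed below 0 and e and Tdc1 above 0 under these 3 scalings. The lowest adjusted p of any monoamine gene under the 15 alternatives was 0.402, for Ddc without ablated 6.

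**Figure D4:**
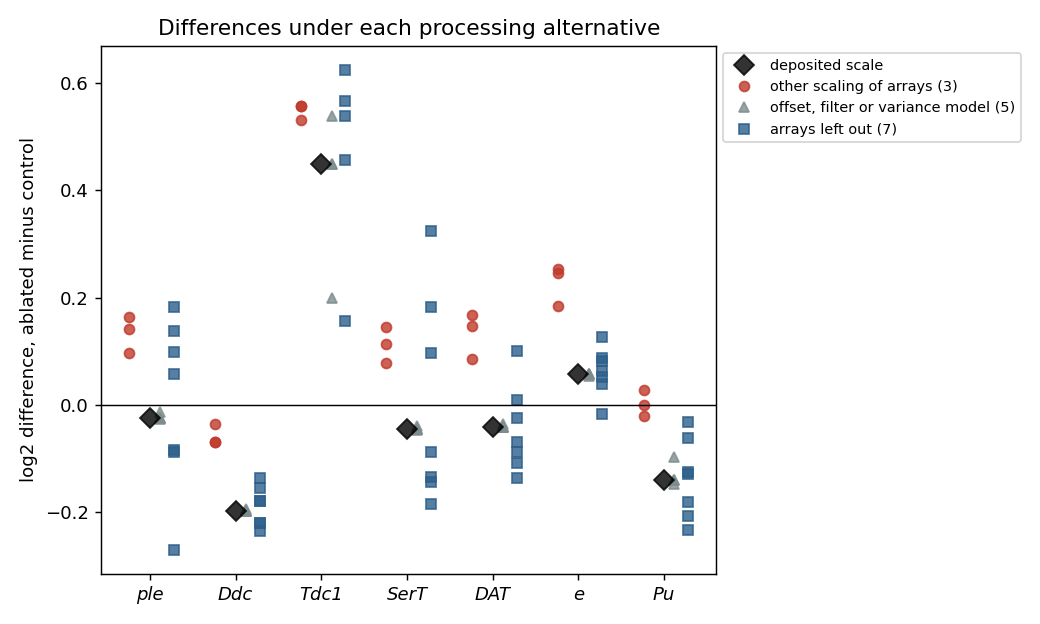
Differences in log2 signal, ablated minus control, of the 7 tested monoamine genes on the deposited scale (black diamonds), under 3 other scalings (red), 5 changes of offset, filter or variance model (grey) and with arrays left out (blue). The red points of each gene lie above its diamond; for ple, SerT and DAT they lie above 0 while the diamond lies below it.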

How the data were processed

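The authors deposited a table of linear signal intensity values, with a row for each probe set and a column for each array. MAS5, which summarises the probes of a set into a signal, is named in the submitters' processing notes, with no settings given. The array means after trimming ranged from 37.3 to 49.3, so no common scaling target is visible, and the deposited values were used as they stand. From 14010 probe sets, 44 Affymetrix controls were left out. Genes were named through the platform annotation and updated by gene identifier to RefSeq symbols (Release 6 annotation), for 12443 probe sets with a single gene. The offset of 2.7 and the level of 9.2 are the 20th and the 40th percentile of all values. limma 3.58.1 in R 4.3.3 was run on all 6 arrays (lmFit and trended eBayes, two-sided), followed by Benjamini-Hochberg adjustment over 8381 probe sets. The script was tested on simulated data. At most 1.52% of probe sets had identical values on a pair of arrays, and the 6 arrays were counted as separate samples. All monoamine probe sets are named, and of the other pathway list up to 4 with the smallest p; elav, repo and ey were named after their values were seen. A gene of the other pathway list is not reported here. A marker list was summed over the brightest probe set of each gene. The genes, lists and alternatives were chosen with earlier results of these data known. Alternatives changed the scaling, offset, filter and variance model and left out arrays.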

Additional observations from a re-analysis of the deposited data

How the results depend on the processing

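limma gave 0 calls among the monoamine genes under each of the 15 alternatives, which tested 6 to 8 of them (Tdc1 in 12 alternatives), and 0 of those tested reached an unadjusted p under 0.05. It also gave 0 calls among the other pathway genes tested and over all probe sets. The median difference of the monoamine genes, -0.041 on the deposited scale, was 0.086 with median-centred arrays, 0.14 after quantile normalization and 0.16 after cyclic loess, and ranged from -0.11 to 0.082 with 1 array left out. Relative to the median of all probe sets it stayed between 0.064 and 0.19. The median of all probe sets was -0.053, -0.024 and 0.0028 under these scalings. That of the other pathway genes, -0.063 on the deposited scale, was 0.059, 0.099 and 0.13. The difference of ple was 0.097, 0.14 and 0.16 under the 3 scalings, -0.27 to 0.14 with 1 array left out and 0.18 without control 1 and ablated 5. That of SerT was 0.077, 0.11 and 0.15, -0.18 to 0.18, and 0.32 in these cases, and that of DAT 0.086, 0.15 and 0.17 under the scalings and -0.14 to 0.10 with 1 array left out. The difference of Pu was 0.00012 after quantile normalization and 0.027 after cyclic loess, that of e ranged from -0.017 (without ablated 4) to 0.13 with 1 array left out, and that of Dhpr was 0.069 without control 1 and ablated 5 and ranged from -0.40 to -0.052 with 1 array left out. The cause was not tested. Ddc and Tdc1 kept their direction in every setting that tested them. No paired analysis was possible because the arrays of the groups share no replicate number. The low signal of Tbh and Tdc1 limits their precision.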

Other observations

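Catsup and Ddc lie in the same stretch of the genome, with 17 protein-coding genes between them in RefSeq's order (Release 6 annotation). For both genes the ablated values all lay below the control values on the deposited scale. For Ddc the groups overlapped with median-centred arrays and after cyclic loess. This stretch was looked at after these values were seen, so it is given without a test. Of the 17 genes, 15 had a probe set and 13 were tested. None of these 13 had groups that did not overlap. Of all probe sets, 14.8% had every ablated value below the control values and 1.26% every ablated value above. limma called 0 of the 13 after adjustment, and 1 (Ttc19) was lower at an unadjusted p under 0.05, against 7.89% of all probe sets. The differences of the 13 ranged from -0.71 for Ttc19 (146470_at) to 0.069 for CG10702 (154745_at). Their median was -0.32, against -0.17 for all probe sets. The amd gene (146479_at), a relative of Ddc with a role in cuticle formation, had a signal of 44.7, 24.3 and 45.7 in ablated brains, against 34.8, 38.0 and 34.5 in control brains, a difference of 0.042 (SE 0.25). A dim probe set of amd (143066_at), below the level for testing, had 1.6, 7.9 and 3.1 in ablated brains, against 1.5, 1.2 and 1.7 in control brains.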
